A study of Mus musculus with 4 samples.

Results

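Non-promoter peaks of pool C alone are the regions of histone H3 trimethylated at lysine 4 (H3K4me3) that were listed in hippocampus pool C, shared no base with any peak of hippocampus pool D, and lay over 1 kb from every annotated transcription start site (TSS) of any gene type. There were 9299 of them among the 34193 peaks of the pool C list, and 5827 other non-promoter pool C peaks shared at least 1 base with pool D. Peaks without a pool D counterpart made up 61.5% of non-promoter pool C peaks, 13.4% of pool C peaks within 1 kb of a start site, and 34.7% of all pool C peaks. The regions were chosen by presence in one peak list and absence from the other, so these shares only describe the rule.

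Both pools were hippocampus of adult male B6CASTF1/J mice aged 2 months, by name the F1 hybrid of the B6 and CAST strains, with no treatment in the labels. Pool C, biological replicate 2, combined 7 biosamples, and pool D, biological replicate 1, combined another 7. The labels call the tissue layer of hippocampus without naming a layer. Each pool had 2 technical libraries with fragments of 200 to 600, but the libraries of a pool were merged into 1 alignment and gave 1 peak list. There is thus 1 value per region and pool, no replicate error and no test of a difference between the pools. Read depth is unknown from these lists, pool D had 24690 peaks in all, and whether unequal depth or another difference in preparation goes with the peaks of pool C alone was not tested. In bulk tissue, a mark carried by more cells and more of the mark per cell cannot be told apart. The tissue label was set against promoter peaks of marker genes. All 26 general neuronal genes and all 21 excitatory neuron genes were marked at a promoter in both pools, against 3 of 24 liver genes and 4 of 24 striated muscle genes. Over all protein-coding genes the share was 64.3%, and all 25 housekeeping genes were marked too. So were 22 of 25 hippocampal field, 18 of 25 interneuron, 9 of 18 ependymal and 6 of 25 microglia genes. The neuronal counts do not separate hippocampus from other brain tissue.

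H3K4me3 is written by the SET1 and MLL methyltransferases and is best known at the start sites of active and poised genes, where CpG-rich DNA recruits these enzymes. Lower amounts occur at strongly active enhancers, which carry mainly H3K4me1, and along the first part of highly transcribed genes, where broad domains extend into the gene body. In brain, broad domains of this kind are known at genes of neuronal and glial identity.

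The 300 bases around the summit of the strongest of the 9299 regions, and of the strongest region in the territory (gene body and 10 kb either side) of 6 cell-type lists, are printed because they show how unlike each other these regions were in sequence. Capitals mark each CG dinucleotide, the site of vertebrate DNA methylation. All are the plus strand of mm10 (GRCm38), read from the RefSeq sequence of that assembly, and all peaks but one lay in introns. The Senp7 window is chr16:56064216-56064515, and the Mertk window of the microglia list is chr2:128704856-128705155. The Ets1 window of the endothelium list is chr9:32672202-32672501, and the Ermn window of the oligodendrocyte list is chr2:58049760-58050059. The Lhx6 window of the interneuron list is chr2:36091444-36091743. The Slc1a3 window of the astrocyte list, chr15:8716418-8716717, lies between genes upstream of Slc1a3, and the Bcl11a window of the excitatory neuron list is chr11:24091671-24091970.
Senp7 intron: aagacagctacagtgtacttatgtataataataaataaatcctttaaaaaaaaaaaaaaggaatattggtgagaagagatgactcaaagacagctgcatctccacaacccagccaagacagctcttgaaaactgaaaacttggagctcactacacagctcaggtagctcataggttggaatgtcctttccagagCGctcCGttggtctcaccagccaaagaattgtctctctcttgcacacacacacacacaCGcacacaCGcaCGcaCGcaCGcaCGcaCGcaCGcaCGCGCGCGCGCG
Mertk intron: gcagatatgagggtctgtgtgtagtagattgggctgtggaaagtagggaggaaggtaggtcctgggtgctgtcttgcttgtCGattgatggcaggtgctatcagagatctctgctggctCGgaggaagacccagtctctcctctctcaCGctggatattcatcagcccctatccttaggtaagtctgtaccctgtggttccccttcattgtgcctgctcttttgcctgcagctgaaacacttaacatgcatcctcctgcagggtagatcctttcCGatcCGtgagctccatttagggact
Ets1 intron: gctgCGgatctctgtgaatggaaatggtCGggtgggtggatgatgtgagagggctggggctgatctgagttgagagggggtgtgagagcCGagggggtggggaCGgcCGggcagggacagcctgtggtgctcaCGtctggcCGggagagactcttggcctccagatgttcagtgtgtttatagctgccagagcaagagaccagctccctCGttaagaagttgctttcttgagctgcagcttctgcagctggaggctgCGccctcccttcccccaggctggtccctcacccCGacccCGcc
Ermn intron: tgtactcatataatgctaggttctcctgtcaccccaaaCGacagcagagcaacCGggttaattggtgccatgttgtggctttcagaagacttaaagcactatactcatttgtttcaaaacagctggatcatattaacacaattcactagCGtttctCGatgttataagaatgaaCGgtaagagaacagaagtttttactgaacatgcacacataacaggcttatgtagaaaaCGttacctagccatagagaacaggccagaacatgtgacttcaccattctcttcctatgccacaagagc
Lhx6 intron: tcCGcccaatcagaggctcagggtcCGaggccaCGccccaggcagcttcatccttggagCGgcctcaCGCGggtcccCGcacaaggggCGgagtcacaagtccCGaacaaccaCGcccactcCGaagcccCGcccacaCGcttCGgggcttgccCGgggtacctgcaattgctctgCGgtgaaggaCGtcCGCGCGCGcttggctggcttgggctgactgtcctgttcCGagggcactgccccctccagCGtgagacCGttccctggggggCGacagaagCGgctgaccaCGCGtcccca
Slc1a3 upstream: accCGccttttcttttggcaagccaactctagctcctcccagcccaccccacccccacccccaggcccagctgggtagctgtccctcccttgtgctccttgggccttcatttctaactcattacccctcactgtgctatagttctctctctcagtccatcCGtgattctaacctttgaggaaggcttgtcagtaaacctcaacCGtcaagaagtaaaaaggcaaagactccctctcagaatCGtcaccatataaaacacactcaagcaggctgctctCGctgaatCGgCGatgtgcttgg
Bcl11a intron: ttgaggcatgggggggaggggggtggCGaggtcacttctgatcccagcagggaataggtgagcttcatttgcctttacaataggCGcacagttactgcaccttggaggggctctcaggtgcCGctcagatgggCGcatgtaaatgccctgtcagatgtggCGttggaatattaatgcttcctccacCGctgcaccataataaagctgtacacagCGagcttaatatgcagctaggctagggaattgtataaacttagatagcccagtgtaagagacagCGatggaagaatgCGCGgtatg
The Senp7 window held 16 CG dinucleotides, most of them in a run of CA and CG repeats at its right end. The Lhx6 window had 28 CG dinucleotides and a GC content of 69.0%, while the Ermn window had 6 and 41.0%, the Mertk window 5 and 52.0%, and the Slc1a3 window 7 and 52.7%. The Ets1 and Bcl11a windows held 11 and 10. High CpG content was therefore present in some of these regions and absent from others.

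The peaks of pool C alone were narrow and weak compared with shared ones. Their median width was 399 bp, against 809 bp for non-promoter peaks shared with pool D. The signal value, the authors' own enrichment per peak, had a median of 3.69 (1.84 to 10.7) in peaks of pool C alone and 7.46 (1.96 to 42.9) in shared peaks. The median −log10 q was 4.70 in peaks of pool C alone and 21.3 in shared ones. A q above 0.05 was attached to 185 peaks of pool C alone (1.99%) and 6 shared peaks. Together the 9299 regions covered 4.27 Mb, less than the 5.52 Mb under the 5827 shared peaks. Since absence from pool D chose the regions, their weakness is a description and no separate result.

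**Figure D1:**
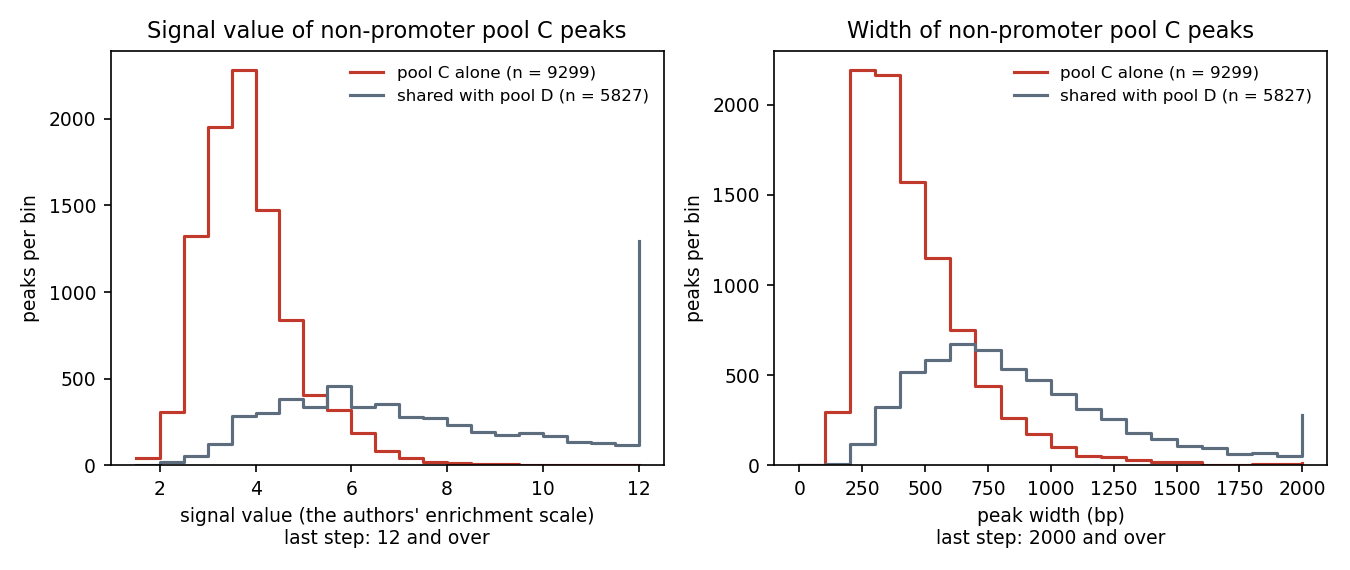
Number of non-promoter pool C peaks by the authors' signal value (left) and by peak width in bp (right), in pool C alone (red, n = 9299) and shared with pool D (grey, n = 5827), with the last step holding all higher values. The red curves lie at low signal and small width, with medians of 3.69 and 399 bp, against 7.46 and 809 bp for shared peaks.

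By the rule every region had a gap to the nearest pool D peak, and for most of them it was over 1 kb. The median gap was 13402 bp, and 82.3% of the 9299 peaks lay over 1 kb from every pool D peak. A gap of at most 1 kb was found for 1646 peaks (17.7%), and 1035 (11.1%) were over 100 kb away. The authors' other lists held many of the regions. The replicated list contained a peak over 2574 of them (27.7%), against 99.8% of shared peaks, and the list called on both pools together contained 5250 (56.5%). Both of these lists came from the alignments of both pools, and presence in pool D split the sets. The contrast with shared peaks therefore follows from the rule and is no separate result. Neither list held 3915. A peak can thus be in the authors' replicated list without having a counterpart in the pool D list.

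The few peaks closest to each threshold had signal values whose ranges overlapped across it. They were picked by distance or overlap alone and are too few for a general statement. Just inside the distance rule were peaks 1001 bp from a start site of Paqr8, 1001 bp from Entpd7 and 1003 bp from D10Wsu102e, with signal values of 4.75, 4.05 and 3.51. Just outside were peaks 999 bp from Gm45168, 1000 bp from Abhd17a and 1000 bp from Zscan2, with 4.79, 2.59 and 3.82. For the overlap rule, the nearest peaks of pool C alone lay 1, 8 and 9 bp from a pool D peak, near Arhgap23, Sars and Grm5, with signal values of 3.96, 3.88 and 1.84. The nearest shared ones had 2, 6 and 9 bases in common with pool D, near Ywhae, Stard13 and Fam49a, with 2.52, 3.33 and 3.18.

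The 10 strongest peaks of pool C alone were scattered over the genome. The strongest, chr16:56064182-56064565 in an intron of Senp7 (a SUMO protease), had a signal value of 10.7, and 61.6% of the 500 bp around its summit was soft-masked repeat. The next were chr3:63862857-63863368 in an intron of Plch1 (a phospholipase C), with 10.3, and chr4:139611545-139611859 in an intron of Iffo2, with 9.48. Between genes were peaks near Lrig2 (9.13), Gm8083 (9.13), Tulp1 (9.07) and Zfp950 (9.01). An intron of Cacna2d3, a calcium channel auxiliary subunit, and an exon of Rem2, a small GTPase that regulates calcium channels, held peaks of 9.01 each, and an exon of Zfp169 one of 8.96. All 10 were in the replicated list, and the Cacna2d3 peak lay 275.7 kb from any pool D peak.

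The 5 widest peaks of pool C alone all lay within genes. The widest, 3207 bp at chr9:48822681-48825887, lay in an intron of Zbtb16, a zinc finger transcription factor also called PLZF, with a signal value of 5.16. Then came 2577 bp at Notch1, the transmembrane receptor, with 4.14, and 2567 bp at Wasf1, an actin regulator of the WAVE complex, with 3.42. Zeb2, a zinc finger repressor, held one of 2531 bp with 5.52, and Sema7a, a membrane-anchored semaphorin, one of 2479 bp with 6.16. The gaps of these 5 to the nearest pool D peak were 3.03, 0.223, 1.17, 1.12 and 1.03 kb, so pool D had a peak close by in each case.

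Over 100 kb from every start site lay 267 peaks of pool C alone (2.87%) and 170 shared peaks (2.92%). The 5 strongest of the 267 were all intronic. They lay in Dpyd, the pyrimidine-degrading enzyme, with a signal value of 8.10, in Arhgap15, a Rac GTPase-activating protein, with 7.36, in the channel gene Trpm3 with 7.03, and in Efna5, an axon guidance ligand, with 7.00 and 6.63. Both Efna5 peaks were over 200 kb from any pool D peak, at 271.4 and 219.0 kb.

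Most regions of pool C alone were intronic. By the position of the peak centre, 5662 (60.9%) lay in introns, 2948 (31.7%) between genes and 689 (7.41%) in exons, whereas of the shared non-promoter peaks 2510 (43.1%) lay in introns, 2802 (48.1%) between genes and 515 (8.84%) in exons. The median distance to the nearest start site was 8581 bp in pool C alone and 10232 bp in shared peaks. Of the peaks of pool C alone, 61.0% lay downstream of that start site, against 54.5% of shared ones. A promoter peak of pool C was within 5 kb of 2813 (30.3%) of the peaks of pool C alone and of 1210 (20.8%) of the shared peaks.

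The intron share went with signal in both sets. When all 15126 non-promoter pool C peaks were cut into 5 classes of signal value (uneven because of ties), peaks of pool C alone made up 95.1%, 90.0%, 79.0%, 40.2% and 1.64% of the classes, weak to strong. Within a class the intron shares of the 2 sets lay close together, although in the strongest class the peaks of pool C alone reached only 10.7, against 42.9 for shared peaks. In introns were 68.1%, 62.5%, 55.6%, 49.96% and 32.7% of the peaks of pool C alone, against 67.3%, 57.6%, 53.1%, 49.0% and 34.6% of the shared peaks. The intron excess over all signal values was thus larger than the difference within any single class. The median distance to the nearest start site was 7677, 7996.5, 9621, 10062 and 17680 bp in pool C alone. In shared peaks it was 9909.5, 11426.5, 9598.5, 10708.5 and 10040 bp. The shorter distance in pool C alone was thus absent in the middle class and reversed in the strongest, which held 49 peaks of pool C alone.

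**Figure D2:**
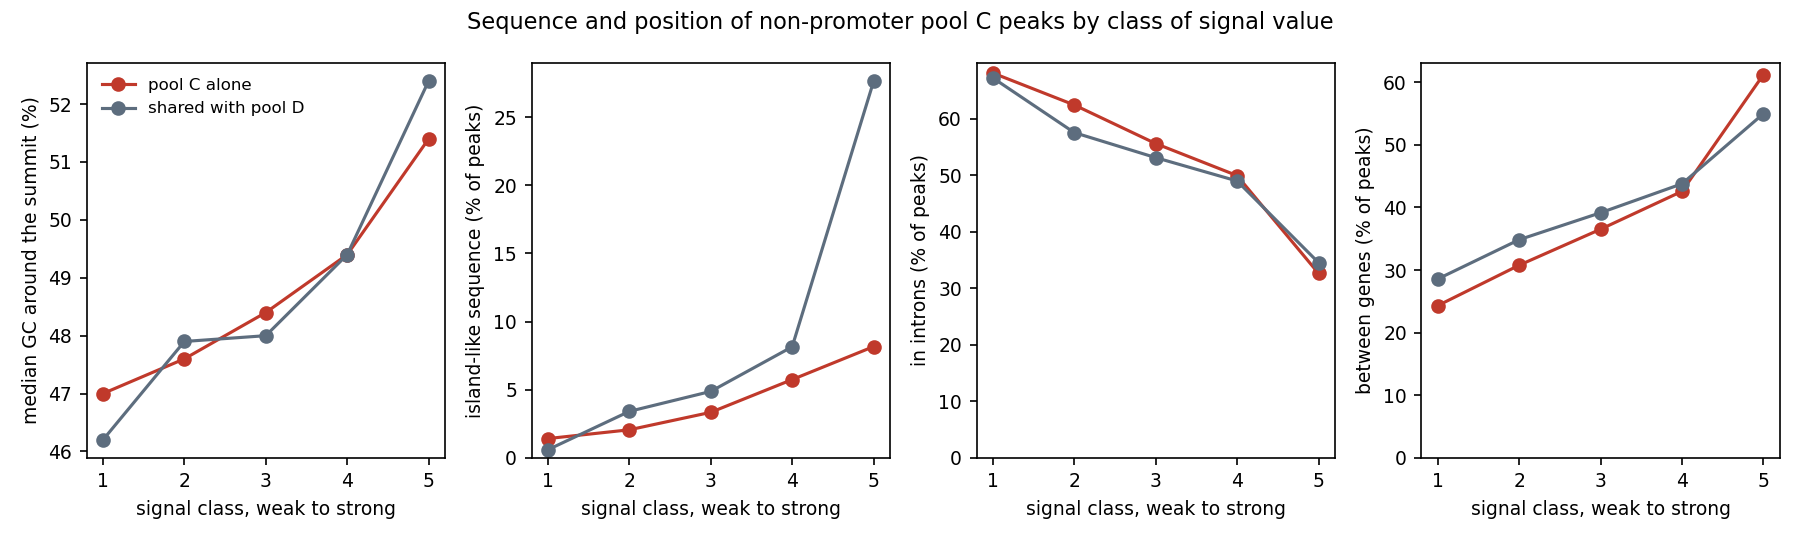
Median GC content in 500 bp around the summit and shares of peaks with island-like sequence, in introns and between genes (percent, y axes, the GC axis not starting at 0), by class of signal value (x axis, weak to strong) for non-promoter pool C peaks in pool C alone (red) and shared with pool D (grey). The widest gap is in island-like sequence in the strongest class, where pool C alone has 49 peaks and 8.16%, against 27.6% of shared peaks.

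Base composition also differed between the sets. The median GC content around the summit was 47.8% in peaks of pool C alone and 50.4% in shared peaks, and the median number of CG dinucleotides in 500 bp was 9 in pool C alone and 14 in shared peaks. Island-like sequence, with at least 50% GC and an observed-to-expected CpG ratio of at least 0.6, was found in 249 peaks of pool C alone (2.68%) and 1002 shared peaks (17.2%). Within the 5 classes of signal, the difference in GC was small. The median GC content was 47.0%, 47.6%, 48.4%, 49.4% and 51.4% in pool C alone, against 46.2%, 47.9%, 48.0%, 49.4% and 52.4% in shared peaks. The median number of CG dinucleotides was lower in pool C alone in every class, at 8, 9, 10, 11 and 13, against 9.5, 10, 11, 12 and 17 in shared peaks. Island-like sequence was found in 1.41%, 2.06%, 3.34%, 5.74% and 8.16% of peaks of pool C alone, against 0.595%, 3.41%, 4.87%, 8.15% and 27.6% of shared peaks. Pool C alone was thus lower in all classes but the weakest, with only 49 peaks of pool C alone in the strongest.

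Short sequence motifs were counted on both strands in the 300 bases around each summit. The AP-1 motif TGANTCA, bound by Fos and Jun proteins, occurred in 897 peaks of pool C alone (9.65%), in 6.85% of shared non-promoter peaks and in 6.11% of all pool C peaks. The E-box CAGATG, which neurogenic basic helix-loop-helix factors bind, occurred in 24.3% of peaks of pool C alone, 20.6% of shared peaks and 17.7% of all. By class of signal, weak to strong, the AP-1 shares were 9.22%, 10.8%, 9.56%, 8.61% and 12.2% in pool C alone, against 7.74%, 7.20%, 10.1%, 7.38% and 5.74% in shared peaks, higher in pool C alone in all but the middle class. The E-box shares were 25.98%, 24.7%, 23.4%, 21.3% and 14.3% in pool C alone, against 23.2%, 23.9%, 22.3%, 21.8% and 19.1% in shared peaks, lower in pool C alone in the strongest 2 classes. The PU.1 letters GAGGAAGT, for the myeloid factor, were in 1.97% of pool C alone, 1.92% of shared peaks and 1.77% of all. The SOX letters ACAATGG were in 4.03% of pool C alone, 3.98% of shared peaks and 2.90% of all, and the CRE palindrome TGACGTCA was in 0.409% of pool C alone, 0.652% of shared peaks and 0.5995% of all. For CTCF the shares were 2.57% in pool C alone, 3.21% in shared peaks and 2.42% in all, and the NFI, RFX and MEF2 motifs were each in under 1% of every set. A match describes letters and shows no binding.

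Chromosomes differed little in the split between the sets. On autosomes there were 3.72 peaks of pool C alone per Mb, from 2.76 on chromosome 14 to 5.03 on chromosome 11. The share of non-promoter pool C peaks that were of pool C alone lay between 59.4% and 65.7% on every autosome and was 56.7% on the X chromosome, which held 0.813 per Mb. None lay on the Y chromosome.

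Host genes of these regions were long, and most carried the mark at a promoter. The body of 3394 of 21938 protein-coding genes (15.5%) held the centre of at least 1 peak of pool C alone. Hosts numbered 1864 when a −log10 q of at least 5 was required. The 3394 hosts had a median length of 68.9 kb, against 79.5 kb for genes hosting shared non-promoter peaks and 17.4 kb for all protein-coding genes. A promoter peak in both pools was present at 3131 hosts (92.3%), against 84.8% of genes hosting shared peaks and 64.3% of all protein-coding genes, and a promoter peak in pool C alone at 1.92% of hosts, against 2.64% of genes hosting shared peaks and 2.68% of all protein-coding genes. Most promoters of the hosts were therefore marked in pool D too, although the intragenic peak was not listed there.

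Longer genes were hosts more often, but the density of peaks was not higher in them. With genes cut into 5 equal groups, short to long, 1.87%, 5.20%, 10.1%, 17.4% and 42.8% were hosts. Per Mb of gene body these groups held 7.35, 7.73, 7.44, 6.42 and 5.18 peaks of pool C alone. By promoter state, the density was 6.18 per Mb in genes marked in both pools, 3.70 in genes marked in pool C alone and 1.87 in genes marked in neither, while shared non-promoter peaks had 2.60, 3.25 and 2.00. Peaks of pool C alone thus varied with promoter state over a wider range than shared ones did.

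Within their hosts the peaks lay toward the 5′ end. The median distance from the 5′ end of the gene was 24.96 kb for peaks of pool C alone and 33.8 kb for shared peaks. The first 10 kb held 34.3% of those of pool C alone and 27.4% of shared ones, and the first 25% of the gene held 40.3% of those of pool C alone and 29.8% of shared ones. Among the hosts, 63.0% had 1 such peak, 575 genes had at least 3 and 172 at least 5.

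The 15 protein-coding genes with the most peaks of pool C alone had 12 to 47 each. Among them, Tcf4, which encodes a basic helix-loop-helix E protein, had 31 peaks of pool C alone over 345.7 kb, with signal values of 2.06 to 6.19. Nfib and Nfix, which encode nuclear factor I proteins, had 15 and 13, and Zbtb20, a zinc finger factor needed for hippocampal field identity in mouse, had 15. Bcl11b (also called Ctip2) had 13 in 93.2 kb, with signal values of 2.21 to 8.10, and Zeb2 and Zbtb16 had 12 each. Every one of these genes also held shared non-promoter peaks, 9 in Tcf4, 8 in Nfib, 10 in Nfix, 4 in Zbtb20, 7 in Bcl11b, 7 in Zeb2 and 2 in Zbtb16.

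Of the others, Tspan5, a tetraspanin, had 16, the receptor gene Fgfr2 15, and Atp2b1, the plasma membrane calcium pump, 13. Prkce, encoding protein kinase C epsilon, and Ank3, encoding the axon initial segment protein ankyrin-G, had 13 each. Some counts rest on very long annotated spans. Gm20388 had 47 peaks over 4435 kb, a span that contains Gse1 with its 12, the annotated span of Fgfr2 is 2961 kb, and Iqschfp, with 13, overlaps Schip1. All 15 of these genes were marked at a promoter in both pools.

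Ranked per length, short genes came first, but dividing a count of at least 3 by gene length favours them by rule. Among genes with at least 3 peaks of pool C alone, Ermn (ermin, a cytoskeletal protein of myelinating oligodendrocytes) had 5 in 7.75 kb, or 64.5 per 100 kb. Ubald2 had 60.2 per 100 kb, Dusp18, a dual-specificity phosphatase, 49.5, and Atp1b2, a subunit of the sodium pump, 48.3, with 3 peaks each. Kcnj2, an inward rectifier potassium channel, had 4 peaks, or 37.5 per 100 kb. None of these 5 genes held a shared non-promoter peak, and all 5 were marked at a promoter in both pools.

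Genes of 15 lists were examined by territory, the gene body with 10 kb on either side. Of all 21938 protein-coding genes, 4689 (21.4%) held a peak of pool C alone in their territory and 3221 (14.7%) a shared non-promoter peak. The density was 5.17 per Mb for peaks of pool C alone and 2.74 per Mb for shared ones. Of the non-promoter pool C peaks in all these territories, 65.3% were of pool C alone. By list this share ran from 33.3% (liver) to 81.4% (oligodendrocytes), with 62.8% for excitatory neuron genes. Also below 65.3% were the ependymal (42.9%), striated muscle (53.8%) and astrocyte (55.8%) lists. General neuronal (61.1%), oligodendrocyte precursor (64.0%) and mural and meningeal (64.3%) genes were below it as well. Above it were the immediate early (66.7%), endothelial (67.6%), microglia (70.6%), interneuron (71.1%), hippocampal field (73.3%) and housekeeping (73.3%) lists. Among genes marked at a promoter in both pools, 4110 of 14098 (29.2%) held a peak of pool C alone in their territory, above the 21.4% of all. Most list genes were marked in both pools. The lists overlap, with 11 genes in more than 1, and they describe where peaks lay without a test.

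Oligodendrocyte genes, which encode myelin proteins and their regulators, had the highest density of the 15 lists. A peak of pool C alone lay in the territory of 16 of 21 genes (76.2%), with 35 peaks in all, or 33.9 per Mb, against 7.74 per Mb for shared peaks. Of the 35, 29 lay in the first 10 kb of the gene, 27 in introns and 8 in exons, and 1 lay upstream. At least 2 such peaks were found at 10 genes, against 7.6% of all protein-coding genes. Of the 21 genes, 19 were marked at a promoter in both pools and 2, Mog and Opalin, in pool C alone.

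Single members at the myelin genes were weak but close together. The 5 of Ermn had signal values in pool C of 5.53, 3.88, 3.51, 3.57 and 2.77 at 2.97, 3.74, 4.58, 5.32 and 6.81 kb from the 5′ end of the gene. Mag, encoding myelin-associated glycoprotein, had 4 with 4.05, 4.61, 5.35 and 4.06, at 2.33 to 6.32 kb. Mbp, encoding myelin basic protein, differed, with 4 peaks spread from 18.8 to 86.2 kb and signal values of 3.51 to 4.43. The 5 of Ermn lay 438 to 4126 bp from the nearest pool D peak.

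Other myelin genes had fewer. There were 2 each at Tspan2, Cldn11 (the claudin of myelin tight junctions), Opalin, Mobp and Ugt8a (a galactolipid synthesis enzyme), and 1 each at Cnp, Mog, Gjc3 and the transcription factor genes Sox10, Nkx6-2 and Myrf. Aspa, Enpp2, Mal, Olig1 and Olig2 had none. Only 6 of the 35 were in the replicated list. Counting all peaks in these territories, promoters included, pool C covered 96.4 kb and pool D 47.0 kb, a ratio of 2.05, against 1.34 over all protein-coding genes. Other lists were also above 1.34, with 1.90 for endothelial, 1.89 for mural and meningeal, 1.80 for microglia and 1.60 for striated muscle genes. Only the immediate early (1.21), housekeeping (1.29) and ependymal (1.31) lists were below it.

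**Figure D3:**
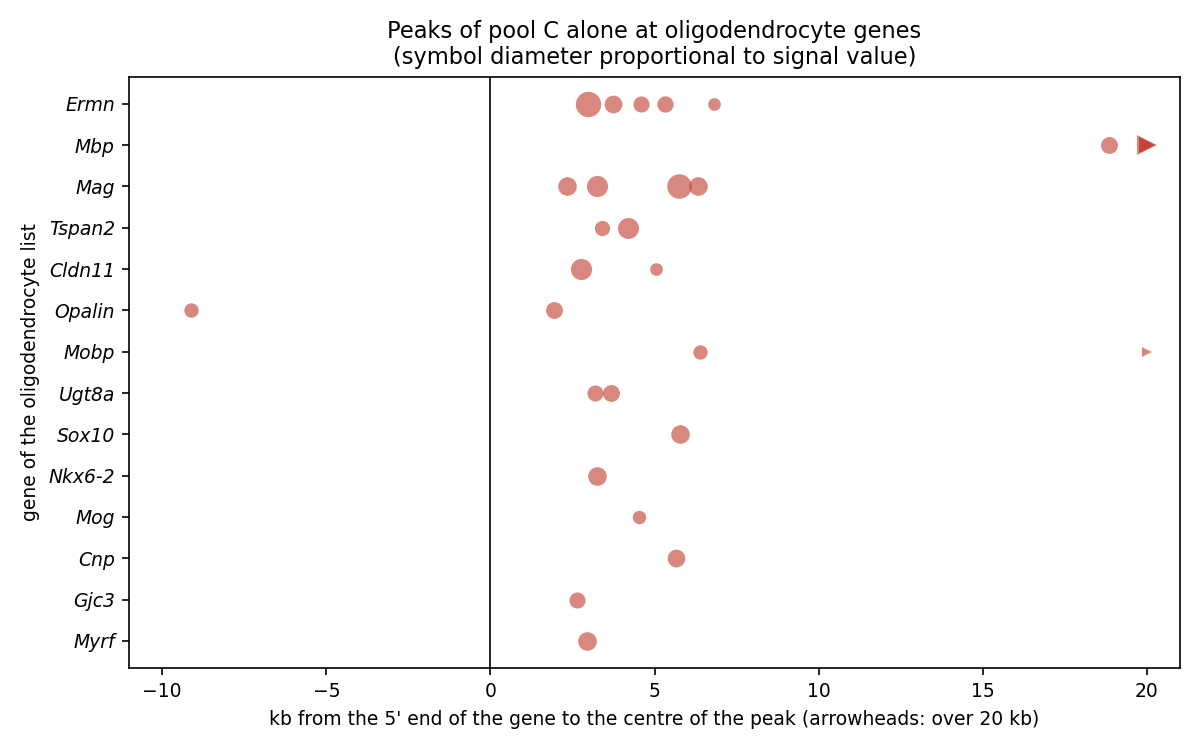
Distance in kb from the 5′ end of the gene to the centre of each peak of pool C alone (x axis) for 14 oligodendrocyte genes that hold one (y axis), with symbol diameter proportional to the authors' signal value and arrowheads for peaks over 20 kb away (3 superimposed at Mbp and 1 at Mobp). Most symbols lie between 1.92 and 6.81 kb downstream, 1 upstream at Opalin.

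Oligodendrocyte precursor genes had fewer. Of 14 genes, 7 held a peak of pool C alone, with 7.11 per Mb, against 4.001 per Mb for shared peaks. Sox6, a transcription factor also used by interneurons, had 6, and Bcas1, Gpr17 and Cspg4 had 2 each. None of the 16 peaks was in the replicated list.

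Neuronal lists varied. Excitatory neuron genes had 13 of 21 genes with a peak of pool C alone and 19.4 per Mb, against 11.5 per Mb for shared peaks. The transcription factor gene Bcl11a led with 10, followed by Grin2b and Grin2a, encoding NMDA receptor subunits, with 8 and 5, and Camk2b, encoding a calcium/calmodulin kinase subunit, with 6. General neuronal genes had 19 of 26 genes (73.1%) but only 5.24 per Mb, against 3.33 per Mb for shared peaks, over a median gene length of 96.5 kb. Rbfox3, the gene of the NeuN antigen, had 8, Celf4, an RNA-binding protein, 6, and Map2 and Ncam1, a microtubule protein and a cell adhesion molecule, 4 each. A high share of genes with a peak thus went with long genes and an average density.

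Genes that mark hippocampal fields had 16 of 25 with a peak of pool C alone and 14.1 per Mb, against 5.13 per Mb for shared peaks. Zbtb20 had 15 and Prox1, the dentate granule cell factor, 7, while Man1a had 4 and the Wnt pathway factor gene Lef1 had 3. Interneuron genes had 13 of 25 and 7.62 per Mb, against 3.11 for shared peaks. Prox1 and Sox6 again gave 13 of their 27 peaks, and the homeobox gene Dlx5 had 2. Lhx6, whose window is printed above, had 1, at a signal value of 6.08.

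Immediate early genes, which neuronal activity induces, had the second highest density, but shared peaks were dense there too. Of the non-promoter pool C peaks in their territories, 66.7% were of pool C alone, near the 65.3% over all protein-coding genes. Of 25 genes, 14 held a peak of pool C alone, with 21.2 per Mb, against 10.6 per Mb for shared peaks, over a median gene length of 5.41 kb. Fosl2 had 3, and Nr4a2, Jund and Fos had 2 each. Of the 20 peaks, 9 lay between genes and 5 upstream, and 10 lay at most 10 kb downstream of the gene's 5′ end. Those 10 include the Ier2 and Ier5 peaks, which lay between genes, past the 3′ end of these short genes. The median gap of the 20 peaks to a pool D peak was 1.09 kb. All 25 genes were marked at a promoter in both pools.

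Of 25 microglia genes, 8 (32.0%) held a peak of pool C alone, against 21.4% of all protein-coding genes. The density was 9.29 per Mb, against 3.87 per Mb for shared peaks in the same territories and 5.17 per Mb of pool C alone over all genes. Sall1, a transcription factor of microglial identity, and Cx3cr1, the fractalkine receptor gene, had 3 each, and Mertk, a receptor kinase used in phagocytosis, had 2. Csf1r, Tmem119 and Ikzf1 had 1, and the complement genes C1qb and C1qc shared 1. Of these 12 peaks 3 were in the replicated list, and with a −log10 q of at least 5 the count was 3 of 25 genes. The 3 at Cx3cr1 had signal values of 3.33, 2.96 and 3.33 and lay 43700 to 44848 bp from any pool D peak. At promoters, 15 of the 25 genes had a peak in pool C alone, 6 in both pools and 4 in neither, while 588 of all protein-coding genes (2.68%) had a promoter peak in pool C alone. Whether the microglial share of the tissue differed between the pools was not tested.

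Endothelial genes had 14 of 23 with a peak of pool C alone and 12.9 per Mb, against 6.21 per Mb for shared peaks. The ETS factor genes Ets1 and Erg had 4 each, with no shared peak at either, the VEGF receptor gene Flt1 had 3 and the transporter gene Abcg2 2. Their promoters were marked in pool C alone at 5 genes, in both pools at 17 and in neither at 1. Mural and meningeal genes had 9 of 20 and 16.9 per Mb, against 9.41 for shared peaks, with 6 at the forkhead gene Foxc1 and 2 each at Col1a1, Pdgfrb and Cspg4.

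Astrocyte genes had 13 of 22 with a peak of pool C alone and 12.4 per Mb, against 9.78 per Mb for shared peaks. Of the non-promoter pool C peaks in their territories, 55.8% were of pool C alone, below the 65.3% over all protein-coding genes. The glutamate transporter gene Slc1a2 and the bicarbonate transporter gene Slc4a4 had 5 each, Nfia had 3 and Slc1a3, the other astrocytic glutamate transporter, had 2. Nfia and Slc1a3 also held 7 and 4 shared peaks. In the whole list, 9 genes held more peaks of pool C alone than shared ones and 5 held more shared peaks. These counts were 12 and 1 in the oligodendrocyte, 14 and 4 in the hippocampal field and 8 and 3 in the microglia list. Only the ependymal (2 and 3), liver (2 and 3) and striated muscle (3 and 4) lists leaned the other way. The same comparison over all protein-coding genes is not given here, but 21.4% of them held any peak of pool C alone and 14.7% any shared one. Peaks of pool C alone made up 65.3% of those in all territories, so a lean toward them is no separate result.

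In lists meant as comparison, the share of genes was 24.0% for housekeeping, 20.8% for striated muscle, 16.7% for ependymal and 12.5% for liver genes. Over all protein-coding genes it was 21.4%, and density was not always low in these lists. Housekeeping genes had 6 of 25 and 12.4 per Mb, against 4.50 per Mb for shared peaks, and 6 of their 11 peaks lay at Ywhaz, a 14-3-3 protein gene, with 1 each at Gpi1, Tubb5 and Pgk1. Ependymal and choroid plexus genes had 3 of 18 (Dnah11, Foxj1 and Slc4a5) and 2.51 per Mb, against 3.34 for shared peaks. Liver genes had 3 of 24 and 2.27 per Mb, against 4.55 for shared peaks. Of their 2 peaks, 1 lay in the territory of Foxa3 and the other in those of both Fga and Fgb. Striated muscle genes had 5 of 24 and 7.37 per Mb, against 6.32 for shared peaks, with 2 at Tnnt1, 2 at Ryr1 and 1 each at Myh7 and Pax7. With so few peaks, a density in these lists can rest on 1 gene.

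**Figure D4:**
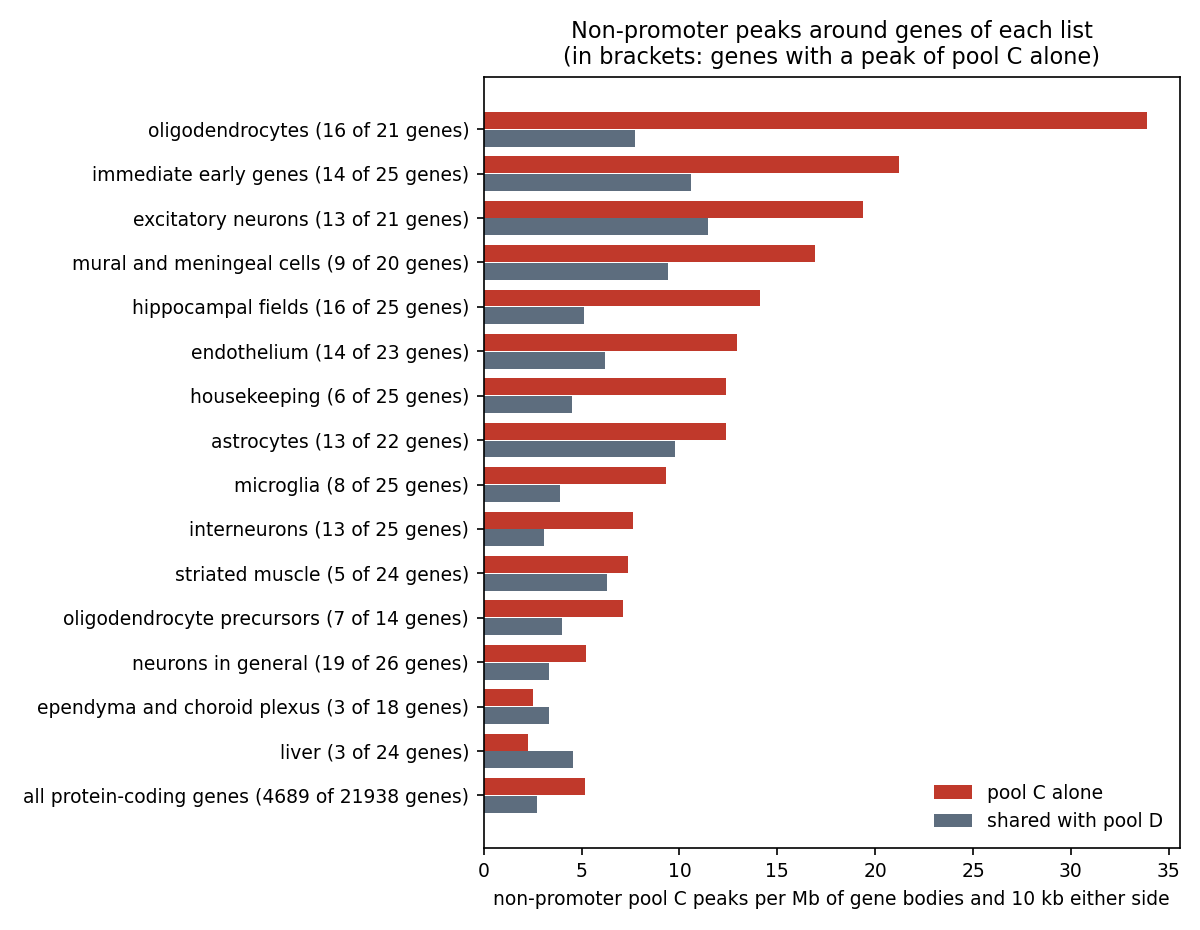
Non-promoter pool C peaks per Mb of gene bodies with 10 kb either side (x axis) for 15 gene lists and all protein-coding genes (y axis, with the number of genes holding a peak of pool C alone), in pool C alone (red) and shared with pool D (grey). The oligodendrocyte list stands at 33.9 against 7.74 per Mb, all protein-coding genes at 5.17 against 2.74 per Mb, and the liver and ependymal lists are lower in pool C alone than in shared peaks.

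Peaks of pool C alone often lay close to one another. Some nearly adjoined, such as chr11:24087005-24088561 and chr11:24088660-24089273 in Bcl11a, so the counts are of listed peaks and not of separate sites. When neighbours at most 10 kb apart were chained, 2692 of the 9299 (28.9%) fell into 1107 clusters of at least 2 peaks, and with a −log10 q of at least 5 the share was 16.4%. Shared non-promoter peaks chained the same way gave 466 clusters with 17.7% of peaks, but there were fewer of them, 2.14 per Mb of genome, against 3.41 per Mb for pool C alone, so the shares are not comparable in density. Clusters of at least 3 numbered 275 in pool C alone and 63 in shared peaks, and clusters of at least 5 numbered 44 in pool C alone and 8 in shared peaks. The median span was 3.55 kb in pool C alone and 5.90 kb in shared peaks. Of the 1107 clusters, 957 (86.4%) had no pool D peak between their first and last base, 82 had a shared non-promoter peak inside and 90 a promoter peak of pool C.

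The 10 largest clusters all lay in protein-coding genes, several of which also led the hosts. The largest held 13 peaks over 55.4 kb of Atp2b1, at chr10:98924174-98979533, with signal values of 2.42 to 4.26 and 2 shared peaks among them. The next, at chr3:68581168-68618665, held 11 over 37.5 kb of Schip1 and Iqschfp. Clusters of 10 lay in Nfix (chr8:84736313-84762558), Tcf4 (chr18:69558977-69586227) and Bcl11b (chr12:107950878-107995963), with 2, 3 and 5 shared non-promoter peaks inside.

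Qk, which encodes the glial RNA-binding protein quaking, had 9 over 23.2 kb, and Tspan5 had 9 over 39.7 kb with no pool D peak inside. Pgbd5, a gene derived from a piggyBac transposase, had 8 over 12.045 kb, and Khdrbs3, which encodes a splicing regulator, had 7 over 11.7 kb, both with no pool D peak inside. Bcl11a had 8 over 14.9 kb at chr11:24085096-24099989, the cluster that contains the window printed above, with signal values of 2.95 to 7.00 and 7220 bp under its peaks. In these 10 clusters between 1 and 5 peaks each were in the replicated list.

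**Figure D5:**
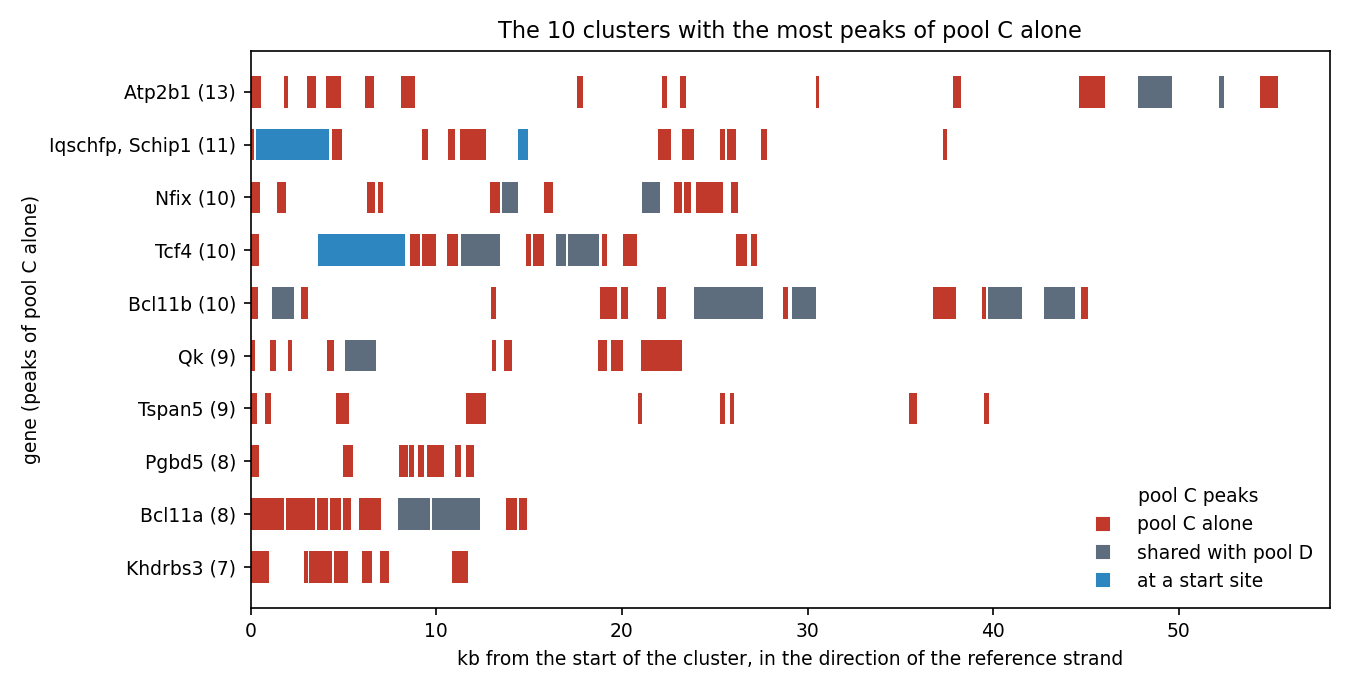
Pool C peaks in the 10 clusters with the most peaks of pool C alone (y axis, gene and number), by distance in kb from the start of the cluster along the reference strand (x axis), in pool C alone (red), shared with pool D (grey) and at a start site (blue). The Atp2b1 cluster of 13 peaks spans 55.4 kb with 2 shared peaks, while those of Tspan5, Pgbd5 and Khdrbs3 hold no shared peak.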

How the data were processed

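ChIP-seq peak lists for H3K4me3 on mouse build mm10 were used as the authors deposited them. Per the labels, pseudoreplicated peaks were called on pool C, on pool D and on both pools, with a separate replicated list. Per-library notes name the source alignments, including a control. Which peak caller was used is not given in the sources used here. Signal values and −log10 q values per peak are the authors' deposited ones, used only within a list. Both technical libraries of a pool share 1 list, so no replicate spread, no interval from replicates and no test was possible, and depth is unknown.

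Members, gene lists and naming rules were chosen with earlier results of these data known. Start sites came from GENCODE M21 (141767 over all gene types), sequence from the RefSeq FASTA of GRCm38.p6. A gene counted as marked if a peak lay within 1 kb of a start site of any of its transcripts. Peaks were placed in genes by their centre and in territories of 10 kb either side. Named were the 10 strongest and 5 widest peaks, the 15 hosts with most peaks, the 5 densest with at least 3, the 10 largest clusters, up to 4 genes per list, and the 5 strongest peaks over 100 kb from a start site. Further genes were named where a count was small, and a few list genes are not reported here. Interval functions in Python 3.11.15 (numpy 2.4.6, pandas 2.3.3, pysam 0.24.0) were tested on simulated data. Alternatives covered overlap, distance, threshold, list and gap.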

Additional observations from a re-analysis of the deposited data

Results flagged for a closer look

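The pool D list also held non-promoter peaks without a counterpart, which enter no comparison above. There were 136 of them, 1.85% of the 7345 non-promoter pool D peaks, with a median signal value of 3.05 (1.95 to 4.96) on the scale of the pool D list and a median width of 272 bp.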

How the results depend on the processing

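No paired analysis was possible because each pool gave 1 list that merged both technical libraries, and for the same reason no library could be left out. Of 60 recomputed values, 22 kept to the reported value and 38 moved. The yardstick was 1.5 times for counts, a binomial 95% interval for shares and a 95% interval of the median for GC. Both intervals treat the 9299 peaks of 1 list as independent, so they are no replicate error and this tally is no test. A reciprocal overlap of 50% gave 3.43% island-like and 31.9% clustered peaks. At least 1 kb from pool D, 57.3% were intronic, 35.8% intergenic and 24.6% clustered, with GC of 48.2%. With −log10 q of at least 5, 4562 peaks remained, 54.5% intronic, 38.2% intergenic, 3.84% island-like and 16.4% clustered, with GC of 48.6%, 1864 hosts and 3 microglia genes. Over 2.5 kb from start sites, 58.1% were intronic, 35.8% intergenic and 26.7% clustered, with 3 microglia genes. With coding start sites only, 3.15% were island-like and 29.9% clustered. In the replicated list were 2574 peaks, 56.7% intronic, 36.9% intergenic, 3.73% island-like and 10.8% clustered, with GC of 48.2%, 1163 hosts and 3 microglia genes. In the list on both pools were 5250, 57.9% intronic, 35.1% intergenic, 3.45% island-like and 18.9% clustered, with GC of 48.2%, 2151 hosts and 3 microglia genes. Gaps of 5 kb and 25 kb put 23.0% and 41.8% of peaks into clusters. The cause of these shifts was not tested, beyond the smaller number of peaks in the stricter sets. Introns held over 54% of peaks under each of these choices. Unknown depth limits what absence from the pool D list shows.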
